A study of Homo sapiens with 38 samples.

Results

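Promoters carrying H3K27ac in every benchmark library were examined as regions of the K562 genome. K562 is an established human leukemia line with erythroid features, and CUT&Tag uses an antibody to bring the Tn5 transposase to a histone mark, so that the DNA around it is cut out and sequenced. The regions were chosen by the measured peak calls themselves. MACS2 peaks of the 6 H3K27ac benchmark libraries were merged where they touched or overlapped, on chromosomes 1 to 22 and X, and a region was kept when all 6 libraries called it, when an annotated start of a protein-coding transcript lay within 1.5 kb, and when no MACS2 H3K27me3 peak of either benchmark library overlapped it. Of 43857 merged regions, 13490 (30.8%) were called in all 6 libraries, and 6963 of these met the other conditions and are called members here. The other regions called by all 6 were 5231 distal regions without H3K27me3 and with no such start within 1.5 kb, 875 promoter regions with H3K27me3 and 421 distal regions with H3K27me3.

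The benchmark libraries were made without drug from SDS-extracted DNA with 15 PCR cycles, as replicates 1 and 2 of Abcam-ab177178 at 1:100, Abcam-ab4729 at 1:100 and Diagenode C15410196 at 1:50, with CST 9733 at 1:100 against H3K27me3. Another 25 H3K27ac libraries from the optimisation of the protocol took no part in the choice of members, and served for the tests. These were 5 first libraries (15 cycles, SDS, untreated, including Active Motif 39133 at 1:100 and Diagenode at 1:50 and 1:100), 4 made with the histone deacetylase inhibitor TSA, and 16 combining 11 or 13 PCR cycles with SDS or column extraction, 1 library for each condition. All libraries came from the same line. The study names the benchmark pairs as biological replicates, and each optimisation condition is 1 library, so a p-value measures only the spread between these libraries. The peak lists hold no read totals. Fragment totals given with the study differ widely between libraries and were not used, so no value was corrected for depth here. The authors named the TSA lists and the PCR and extraction lists as downsampled, but not the others. Each library is a bulk preparation, in which more cells with a mark and more mark per cell cannot be told apart.

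Acetylation of lysine 27 of histone H3 (H3K27ac) is laid down by the p300 and CBP acetyltransferases on nucleosomes that flank active promoters and enhancers. Trimethylation of the same lysine (H3K27me3) is written by the Polycomb complex PRC2 and marks silenced genes, and 1 lysine cannot carry both groups at once. Most human promoters of broadly expressed genes lie in CpG islands, stretches where the CpG dinucleotide has been retained, and there bind SP and KLF factors, ETS factors, NRF1, NFY and YY1.

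The sequences below show promoters of 6 members, as the 200 bases before the canonical start of each gene in GRCh37 (the assembly of hg19), read 5′ to 3′ on the strand of the gene. ANP32B, a histone chaperone gene, was the only one of the 5 strongest members with no annotated exon in the window. TAL1 encodes a factor of an erythroid transcription complex. RPS6 and RPL10A (ribosomal proteins), HSPA1A (an inducible heat shock protein) and EEF2 (elongation factor of translation) were the strongest genes of the lists given further on whose windows had no annotated exon and held the ETS, NRF1, NFY and CRE letters. Of 161 genes examined for printing, 32 had no exon in the window. Capitals mark exact matches, on either strand, to the motif letters given after the sequences.
ANP32B chr9:100745423-100745622 (plus strand): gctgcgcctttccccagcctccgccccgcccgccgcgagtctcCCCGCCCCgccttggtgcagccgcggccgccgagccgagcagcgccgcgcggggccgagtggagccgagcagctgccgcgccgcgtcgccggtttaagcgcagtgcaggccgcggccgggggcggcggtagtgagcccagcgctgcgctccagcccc
TAL1 chr1:47697898-47698097 (minus strand): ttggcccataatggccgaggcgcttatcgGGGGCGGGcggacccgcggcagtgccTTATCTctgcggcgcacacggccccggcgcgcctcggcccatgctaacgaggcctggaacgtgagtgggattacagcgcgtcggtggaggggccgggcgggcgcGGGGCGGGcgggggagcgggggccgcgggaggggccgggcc
RPS6 chr9:19380235-19380434 (minus strand): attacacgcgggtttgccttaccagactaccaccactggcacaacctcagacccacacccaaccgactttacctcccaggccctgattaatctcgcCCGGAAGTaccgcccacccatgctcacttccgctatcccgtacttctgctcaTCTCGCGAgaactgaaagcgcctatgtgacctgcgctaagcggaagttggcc
RPL10A chr6:35435978-35436177 (plus strand): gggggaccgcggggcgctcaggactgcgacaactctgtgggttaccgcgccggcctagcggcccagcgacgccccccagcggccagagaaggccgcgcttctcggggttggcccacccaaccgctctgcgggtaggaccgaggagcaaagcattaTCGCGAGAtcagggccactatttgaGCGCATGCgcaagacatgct
HSPA1A chr6:31783120-31783319 (plus strand): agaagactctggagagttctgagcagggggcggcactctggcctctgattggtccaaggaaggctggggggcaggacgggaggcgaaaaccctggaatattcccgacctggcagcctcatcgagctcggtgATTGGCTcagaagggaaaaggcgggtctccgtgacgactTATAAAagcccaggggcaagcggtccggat
EEF2 chr19:3985462-3985661 (minus strand): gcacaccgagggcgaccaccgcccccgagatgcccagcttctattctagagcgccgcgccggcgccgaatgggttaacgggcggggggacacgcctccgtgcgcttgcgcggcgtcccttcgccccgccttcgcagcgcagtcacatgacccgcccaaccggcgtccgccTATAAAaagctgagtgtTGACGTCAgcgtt

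CpG content differed among these: ANP32B held 33 CpG dinucleotides in the 200 bases, TAL1 29, EEF2 28, RPL10A 21, RPS6 13 and HSPA1A 11. The RPS6 window held the ETS letters CCGGAAGT starting 104 bases before the start and the ZBTB33 letters TCTCGCGA at 52 bases. RPL10A held the NRF1 letters GCGCATGC at 20 bases and ZBTB33 letters at 45 bases. At HSPA1A the NFY letters (AGCCAAT, on the other strand) lay 69 bases and the TATA box (TATAAA) 30 bases before the start. EEF2 had a TATA box at the same distance and the CRE letters TGACGTCA 13 bases before the start. TAL1 held the SP and KLF letters GGGGCGGG at 171 and 41 bases and a GATA match (AGATAA, on the other strand) at 145 bases. A match is only a match of letters and says nothing of binding.

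High CpG content was shared by most members and by other acetylated promoters. A window of 300 bases, 250 before the canonical start and 50 after it, was read at 19478 protein-coding genes, 7224 of which had that start within 1.5 kb of a member. At genes of members the median GC content was 66% and the median ratio of observed to expected CpG 0.878, with 90.3% of windows above a ratio of 0.6. Over all protein-coding genes 68.0% of windows were above that ratio, and at the 8656 genes with no benchmark H3K27ac peak within 1.5 kb 43.1% were. At genes of promoter regions with H3K27me3 called by all 6 libraries the share was 92.2%, and at those of promoter regions called in 5 libraries 88.3%. Read over 300 bases at the centre of the region, members had a median ratio of 0.714 with 63.4% above 0.6, and distal regions 0.244 with 12.1%. The members as whole regions had a median GC content of 56.4% and a median CpG ratio of 0.645, against 49.3% and 0.247 in distal regions.

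Exact letters of the promoter motifs named above were more frequent at starts of members than at the centres of the same regions, so distal centres are compared with centres of members. The ETS letters stood in 11.2% of start windows at genes of members and 6.15% over all protein-coding genes, and in 3.49% of member centres against 0.707% of distal centres. NRF1 letters were found in 6.7% and 4.24% of start windows, and in 1.77% of member and 0.707% of distal centres. In the same order the shares were 7.36%, 4.08%, 3.43% and 1.99% for the YY1 letters AAGATGGC, and 3.28%, 1.75%, 0.948% and 0.153% for the ZBTB33 letters. SP and KLF letters were the most frequent at members, in 41.3% of start windows against 34.4% over all genes, and in 18.9% of member centres against 4.3% of distal ones. The CRE letters stood in 3.97% and 2.72% of start windows and in 0.876% and 0.249% of centres, and the E-box CACGTG, which lies within no other motif of the list, in 10.5%, 8.75%, 6.15% and 4.22%. The NFY letters stood in 9.84% and 8.88% of start windows, and their shares at centres were close, with 3.04% at members and 2.92% at distal regions. Promoter regions with H3K27me3 held SP and KLF letters in 55.9% and NFY letters in 14.4% of start windows, above the members.

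Letters bound by lineage factors and by TATA-binding protein showed the opposite order. GATA letters were found in 4.29% of start windows at genes of members and 7.09% over all genes, and in 7.22% of member centres against 19.7% of distal centres. The AP-1 letters TGANTCA stood in 4.72% of member and 13.2% of distal centres, and the NF-E2 letters GCTGAGTCA, each of which also holds an AP-1 match, in 0.574% and 2.24%. TATAAA was found in 5.01% of windows at genes of members, 9.59% over all genes and 15.4% at genes without a peak. Windows of equal length differ in base composition between these sets, whose part in the shares was not tested. From the quartile of genes at members with the lowest fold to that with the highest, windows with ETS letters stood at 12.1%, 12.5%, 11.2% and 9.14%. Windows with NFY letters stood at 11.2%, 8.80%, 10.5% and 8.80% in the same order, without a steady fall. Those with ZBTB33 letters went from 2.66% to 4.26%, with TATAAA from 3.99% to 6.04% and with NF-E2 letters from 0.111% to 0.664%, the last over 27 genes in all. These shares are a description, since the fold also entered the choice of members.

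**Figure D1:**
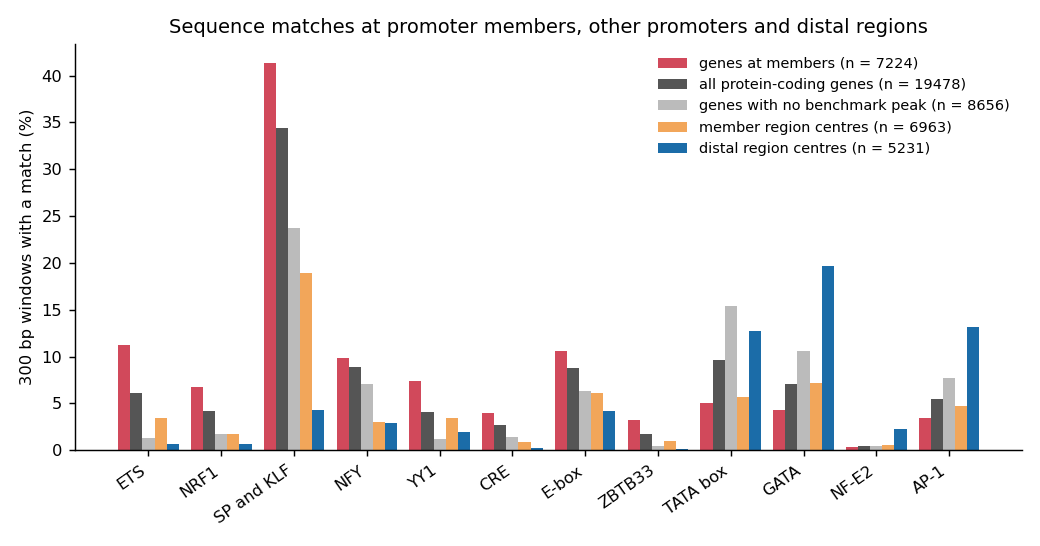
Percent of 300 bp windows (vertical axis) with at least 1 exact match to each of 12 motifs (horizontal axis), for genes at members, all protein-coding genes, genes with no benchmark H3K27ac peak within 1.5 kb, centres of members and centres of distal regions. The ETS bar stands at 11.2% at genes of members, at 3.49% at member centres and at 0.707% at distal centres, while for GATA the order turns, with 7.22% at member centres and 19.7% at distal centres.

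The members covered 20.0 Mb in all. Their width ran from 449 to 24789 bp with a median of 2387 bp, and 9.34% were wider than 5 kb, against 6.16% of distal regions. An annotated start lay inside 6620 members (95.1%), and the other 343 had one within 1.5 kb of an edge. A single protein-coding gene had a start at 5625 members, a pair of genes at 1246, and 3 or more at 92. Starts on both strands were found at 1134 members (16.3%), whose median width was 2774 bp against 2310 bp for members with starts on 1 strand. An lncRNA start lay within 1.5 kb of 25.9% of members and of 16.8% of distal regions.

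The 5 widest members were the regions at GSE1, at COPZ1, NFE2 and HNRNPA1, at ZMYND8, at KCNH2 and at PIEZO1, from 24789 down to 18922 bp. NFE2 is an erythroid and megakaryocytic transcription factor, HNRNPA1 an RNA-binding protein, KCNH2 a potassium channel subunit and PIEZO1 a mechanically gated ion channel. Each of these 5 had a SEACR peak in all 25 optimisation libraries. The 3 narrowest, at the transcription factor gene NFIC (449 bp), GEMIN2 of the SMN complex (495 bp) and the splicing regulator gene MBNL2 (501 bp), were marked in 3, 3 and 2 of the 25. Wide regions offer more bases for a peak to touch, and its part in these counts was not tested.

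Fold enrichment, the pileup at a peak over the background of its library as MACS2 wrote it, was read as the highest value on each member in each benchmark library. Members were chosen on these lists, so the values are a description. The median fold over members was 25.0 and 24.5 in the ab177178 replicates, 13.8 and 19.9 in those of ab4729, and 20.9 and 28.6 in those of Diagenode. Replicate 1 of ab4729 was the lowest and replicate 2 of Diagenode the highest, and the range within ab4729 and within Diagenode was wider than within ab177178. In distal regions the medians were 16.7, 16.1, 11.6, 17.2, 15.3 and 20.1 in the same order. On the log2 scale the median at members exceeded that at distal regions by 0.58 and 0.60 with ab177178, by 0.25 and 0.21 with ab4729 and by 0.45 and 0.51 with Diagenode, so replicates of 1 antibody lay closer together than the antibodies did.

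**Figure D2:**
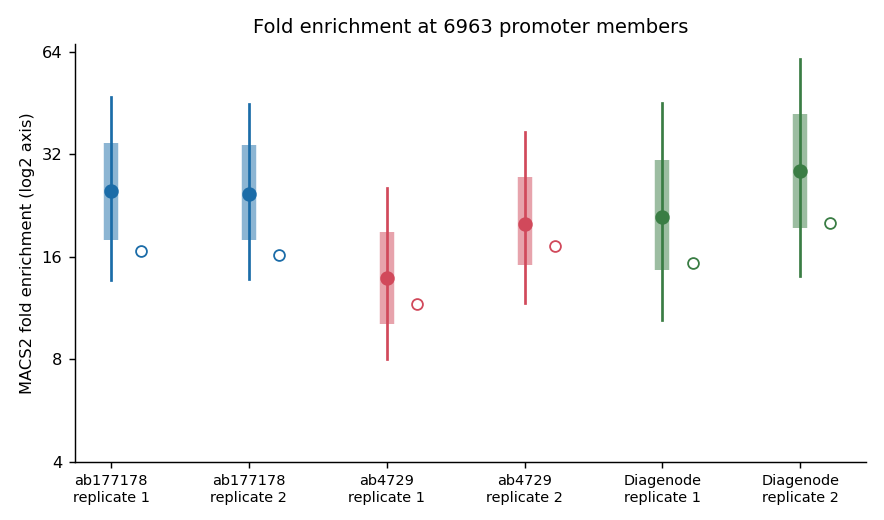
MACS2 fold enrichment (log2 axis) at the 6963 members in each of 6 benchmark libraries, as median (filled point), middle 50% (thick bar) and 10th to 90th percentile (line), with the median of distal regions as an open point. The filled points run from 13.8 in replicate 1 of ab4729 to 28.6 in replicate 2 of Diagenode, each above its open point.

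Members kept much of their rank between libraries. Pearson's r of log2 fold across members, which share depth and library within each column, was 0.926 between the ab177178 replicates, 0.848 between those of ab4729 and 0.940 between those of Diagenode, and it averaged 0.791 to 0.841 between libraries of different antibodies. The genomic regions are not independent replicates, so no p is given. After each library was centred on its median over the 13490 regions called by all 6, the difference between replicates had an SD across members of 0.26 (ab177178), 0.35 (ab4729) and 0.28 (Diagenode) on the log2 scale. The difference between antibody means had an SD of 0.37 to 0.41.

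On the log2 folds centred in this way, both ab177178 libraries lay above the other 4 at 1356 members (19.5%), against 15.6% over all regions called by the 6. For Diagenode the count was 1547 members (22.2%), against 18.0%. For ab4729 it was 389 members (5.59%), against 12.0%, whereas at distal regions it was 1043 (19.9%). The members with the largest separation, chosen by a stated rule on the centred values, were EEF1E1, TBC1D14 and SENP6. The folds given for them are not centred, so their order between libraries can differ from the centred one. At EEF1E1, a scaffold protein of the tRNA synthetase complex, the folds were 28.0 and 23.9 with ab177178, 40.7 and 52.9 with ab4729, and 85.8 and 109.5 with Diagenode, without overlap between the antibodies. At TBC1D14, an autophagy regulator, both ab177178 folds were low (7.14 and 7.17), those of ab4729 were 19.6 and 19.9, and those of Diagenode, 17.4 and 23.1, lay on either side of the ab4729 values.

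Strength varied over an order of magnitude within the set. The lowest of the 6 folds had a median of 13.1 over members, a 10th percentile of 8.00 and a maximum of 92.1. The 5 strongest by that measure were the regions at RCSD1, MFSD2B, NPRL3, MUC1 and ANP32B. RCSD1, which encodes a regulator of the actin capping protein, had folds of 102.4 and 99.8 with ab177178, 94.5 and 92.1 with ab4729, and 108.8 and 149.1 with Diagenode. MFSD2B, a sphingosine 1-phosphate exporter of red cells and platelets, had 129.7, 142.2, 90.2, 135.3, 202.2 and 273.2 in the same order. NPRL3 is the host of enhancers of the alpha-globin genes and a subunit of the GATOR1 complex. Its member spanned 3654 bp with a lowest fold of 79.3, and 23 of the 25 optimisation libraries marked it.

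At the edge of the rule, the 3 members with the least certain call were DDX10 and NUMBL, with a lowest −log10 q of 5.55 each, and MTF1 with 5.56. DDX10, an RNA helicase gene, had folds from 14.3 in both ab177178 libraries down to 5.48 in replicate 2 of Diagenode. Just outside, among 1188 promoter regions without H3K27me3 that 5 of the 6 libraries called, the most certain were HIKESHI (a nuclear import carrier of HSP70) and KPNA1 (an importin alpha), with a lowest −log10 q over their 5 calls of 47.9 and 38.7. Both lacked a call in replicate 1 of ab4729 alone, as did 972 of the 1188. Membership therefore turned on that library more than on any other: regions meeting the rule in the other 5 numbered 7938, against 6989 to 7127 when another library was left out.

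Most genes on 7 lists of basic cell functions, chosen with earlier results of these data known, lay at members. Of 19756 protein-coding genes, 7620 (38.6%) had a start within 1.5 kb of a member. Among translation factors the count was 17 of 18, among nuclear pore and export genes 18 of 20, among aminoacyl-tRNA synthetases 18 of 20 and among genes of the cytosolic ribosome 28 of 32. Chaperonin and heat shock genes and genes of ubiquitin conjugation each had 17 of 20, and RNA polymerase II with its general factors 17 of 22. Over protein-coding genes, 8656 of 19478 had no benchmark H3K27ac peak within 1.5 kb of the canonical start. Every gene of these 7 lists had a peak in some benchmark library within 1.5 kb of an annotated start. Those outside the set were either called in fewer libraries, as RPL23 (5 libraries), POLR2G (5) and RARS1 (2), or lay at a region with an H3K27me3 peak, as RPS19, RPS9, TBP, EIF3C, CCT3 and HSPA8.

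The strongest members of each list were picked by their lowest fold, so their values are a description. Over the listed genes at members, the median lowest fold ran from 13.1 (RNA polymerase II and general factors) to 21.5 (ubiquitin conjugation). Over all members, counted by region and not by gene, the median was 13.1. EIF3B, a subunit of the initiation factor that recruits the small ribosomal subunit, had folds of 151.2, 140.4, 62.5, 112.0, 226.6 and 277.4 in ab177178, ab4729 and Diagenode replicates 1 and 2 in turn. EEF1A1, which brings aminoacyl-tRNA to the ribosome, had a lowest fold of 34.2 and EIF4E, the cap-binding protein, 24.0. Among synthetases AARS1 (alanine) had 52.4, GARS1 (glycine) 40.0 and TARS1 (threonine) 30.5, and among ribosomal proteins RPL7 had 36.4 and RPL35 26.9. NUP153 and NUP85 of the nuclear pore had 41.4 and 40.0, HSPA9 (the mitochondrial HSP70) 53.1, HSP90AB1 38.5 and HSPA4 31.3, and UBE2D3, CUL1 and SKP1 of the ubiquitin pathway 39.3, 31.3 and 29.8. The lead of RNA polymerase II and general factors, GTF2H1, had 18.9. Several of these genes have near-identical copies elsewhere in the genome, whose reads a peak caller cannot assign with certainty, HSPA1A with HSPA1B among them.

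Erythroid genes checked the label of the line. GATA1, TAL1, NFE2, TFRC, EPOR, HBG1 and LMO2 had a start at a member (7 of 10 markers). KLF1 lay at a region called in all 6 but overlapping H3K27me3, and ALAS2 was called in 4. Of 18 markers of T cells, B cells, hepatocytes, neurons and keratinocytes none had a start at a member, and 14 had no H3K27ac peak in any benchmark library. TAL1 had folds of 64.3, 52.6, 50.2, 51.5, 94.1 and 112.6 in the same order of libraries, and GATA1, the master regulator of red cell genes, 41.7, 38.8, 26.2, 30.2, 32.1 and 52.9. LMO2, which encodes a partner of TAL1, had members at separate starts, with lowest folds of 43.6 and 19.1. HBG1 shares nearly all its sequence with HBG2.

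The study drew its positive qPCR controls from the most significant ENCODE H3K27ac peaks and its negative ones from the least significant. The positive controls included ARHGAP22, COX4I2 and ZMYND8, and the negative ones were KLHL11 and SIGIRR. Of these, ZMYND8 (a chromatin reader), ARHGAP22 (a GTPase-activating protein) and SIGIRR (an inhibitory receptor of the interleukin-1 family) had a start at a member. ZMYND8 was among the widest, with a lowest fold of 58.2 and a SEACR peak in all 25 optimisation libraries. ARHGAP22, with its member at a start other than the canonical one, had a lowest fold of 18.2 and was marked in 12. The member at SIGIRR, shared with PKP3, had folds of 25.0 and 24.5 (ab177178), 10.9 and 13.1 (ab4729) and 9.07 and 14.0 (Diagenode), and 2 of the 25 marked it. KLHL11 was called in 4 libraries, and COX4I2 had no H3K27ac peak within 1.5 kb of a start. The amplicons themselves may lie elsewhere in these genes and were not placed.

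By chromosome, the share of protein-coding genes at members ran from 23.8% on X and 28.1% on chromosome 21 to 46.4% on chromosome 16. The median log2 fold of members, centred in each library, was lowest on X and on chromosome 22 (-0.29 relative to all members in both cases) and highest on chromosome 21 (0.39), with chromosome 6 at 0.26. Fold is relative to a genome-wide background, and copy number of the line, which could not be read from peak lists, cannot be told apart from it.

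Around the outermost start, peaks reached further into the gene than away from it. At the 5829 members with starts on 1 strand, the median difference between reach downstream and upstream of the outermost start within 1.5 kb was 508 to 767 bp over the 6 benchmark libraries. From the innermost start it was -83 bp in replicate 1 of ab4729 and 8 to 98 bp in the other 5. The size, and in replicate 1 of ab4729 the sign, thus rested on the start chosen. At the 2380 members whose starts span at most 50 bp the difference was 298 to 548 bp. From the canonical start, a choice made after seeing the data, it was 315 to 553 bp over 4992 members. In replicate 1 of ab177178, 87.5% of the 5829 members were covered by a peak at the outermost start, 86.1% at 500 bp downstream and 53.0% at 500 bp upstream. For replicate 1 of ab4729 the shares were 72.7%, 59.3% and 31.1%, the lowest of the 6. The position covered most often lay 100 to 250 bp downstream in every benchmark library.

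**Figure D3:**
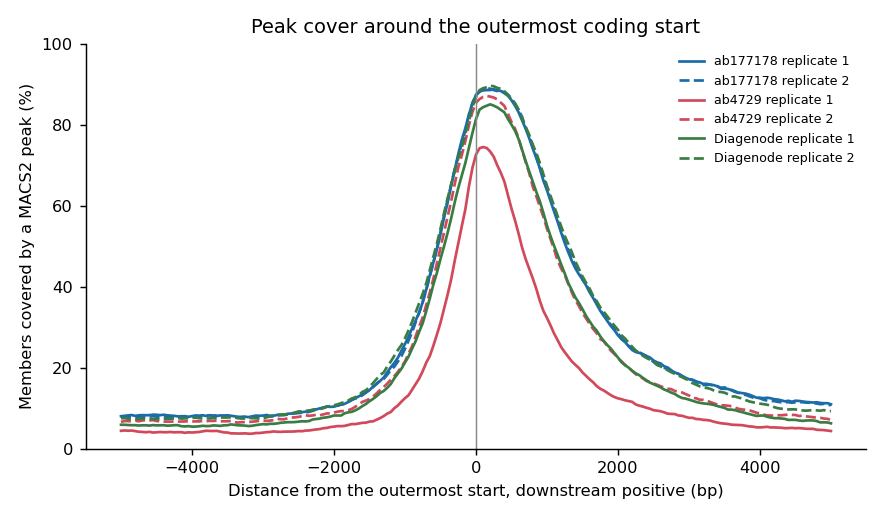
Percent of members with starts on 1 strand covered by a MACS2 peak (vertical axis) at each distance from the outermost coding start (horizontal axis, bp, downstream positive), 1 line for each of 6 benchmark libraries. The highest points lie 100 to 250 bp downstream, from 74.5% in replicate 1 of ab4729 to 89.7% in replicate 2 of Diagenode.

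The asymmetry was tested in the 9 optimisation H3K27ac libraries with MACS2 lists. Reach was read within each member, so a peak was cut at edges that the benchmark peaks had set. Those benchmark peaks leaned downstream from the outermost and canonical starts, so the optimisation libraries were not an independent test of direction. Peaks reached further downstream than upstream by a median of 193 bp (Active Motif), 206 bp (ab177178 with TSA), 287 bp (Diagenode 1:100), 379 bp (Diagenode 1:100 with TSA), 600.5 bp (ab177178), 642 bp (Diagenode 1:50 with TSA), 648 bp (ab4729 with TSA), 651 bp (ab4729) and 680.5 bp (Diagenode 1:50). All 9 libraries thus leaned downstream, by 476 ± 207 bp on average (SD, n = 9, exact sign-flip permutation test, two-sided, p = 0.00391, the smallest that 9 libraries allow). The direction depended on which annotated start was taken: from the innermost start all 9 leaned upstream, with a mean of -284 bp (exact p = 0.00391). By definition the outermost start favours a downstream lean and the innermost an upstream one. Neither of these tests can therefore decide the direction alone. From the canonical start, a choice made after these values were seen, the mean was 198 bp and 7 of 9 leaned downstream (exact p = 0.0586), and at members whose starts span at most 50 bp it was 215 bp (7 of 9, exact p = 0.0391). All of these tests share the edges set by the benchmark peaks, and how much of the lean came from them was not tested.

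In the optimisation libraries, which had no part in the rule, members were marked more often than distal regions. SEACR peaks overlapped 15.4% (Active Motif, first library) to 89.0% (ab4729, first library) of members, with a median of 43.5% over 25 libraries, and 11.1% to 67.5% of distal regions, with a median of 25.7%. The mean was 43.6% ± 17.0 for members and 30.8% ± 15.7 for distal regions (SD, n = 25). The difference averaged 12.8 percentage points ± 8.23 (SD, n = 25) and was above 0 in 24 of 25 libraries (sign-flip permutation test, two-sided, p = 1e-05, the smallest that 100000 resamples can give). The exception was ab4729 with TSA, with 62.0% of members and 62.3% of distal regions. Members were also the stronger regions in the benchmark, and between members and distal regions in the same quartile of lowest fold the difference was 5.27 points ± 7.61 (SD, n = 25, permutation p = 0.00207), above 0 in 17 of 25. At fixed width it was 9.37 points for regions of 1000 to 3000 bp and 9.85 over the middle 500 bp.

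**Figure D4:**
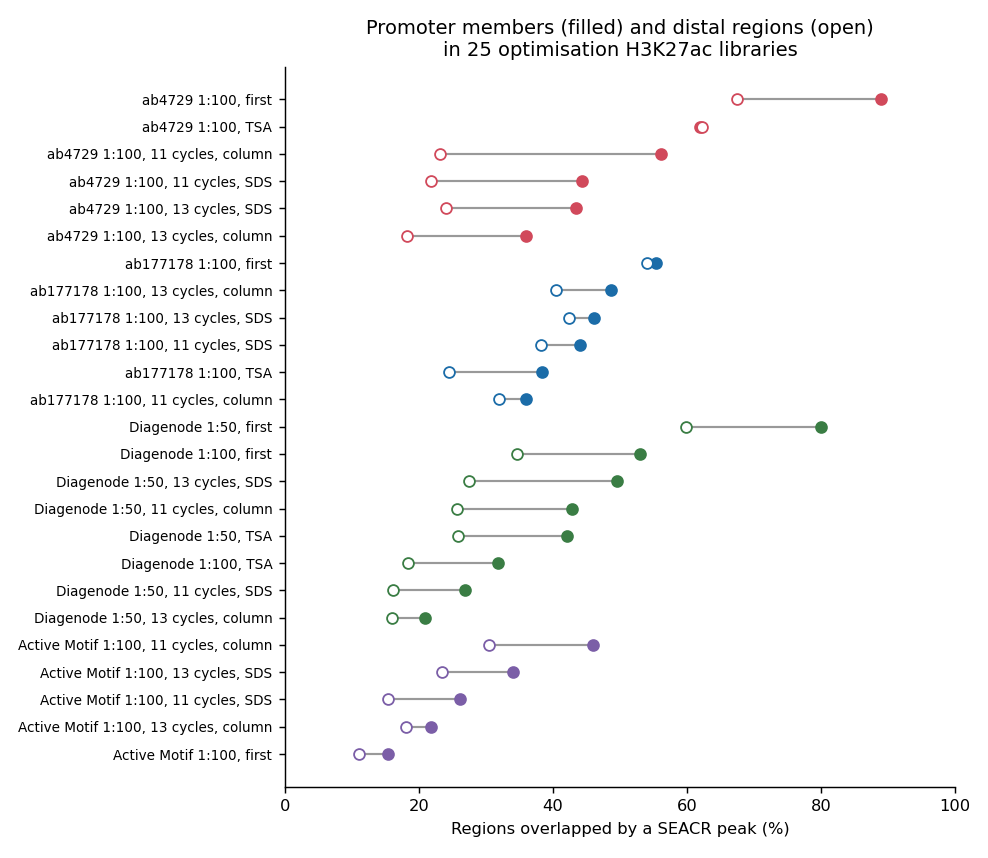
Percent of regions overlapped by a SEACR peak (horizontal axis) in each of 25 optimisation H3K27ac libraries (rows, coloured by antibody), for members (filled) and distal regions (open). The filled point lies to the right in 24 rows, by up to 33.0 points with ab4729 at 11 cycles and column extraction, and the exception is ab4729 with TSA.

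The gap between members and distal regions differed by antibody in size. It was 19.0 points ± 10.9 with ab4729 (SD, n = 6 libraries), 15.4 ± 5.52 with Diagenode (n = 8), 8.99 ± 4.99 with Active Motif (n = 5) and 6.17 ± 4.47 with ab177178 (n = 6). The difference between antibodies was not tested, and the ranges overlap. For ab4729 the values ran from -0.33 to 33.0 points, and for ab177178 from 1.32 to 14.0. This order is not that of the benchmark fold, where ab177178 had the larger gap and ab4729 the smaller. The number of SEACR peaks per library also varied, from 3024 for the first Active Motif library to 21822 for ab4729 with TSA, and its part in these shares was not tested.

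With MACS2 the difference was smaller. In 9 optimisation libraries the peaks overlapped 41.7% ± 30.3 of members and 34.98% ± 26.4 of distal regions (SD, n = 9), from 7.78% of members with TSA and ab177178 to 95.1% in the first ab4729 library. The mean difference of 6.68 points ± 7.92 passed the test (exact sign-flip permutation, two-sided, p = 0.043), with 7 of 9 libraries above 0. The libraries below 0 were the first ab177178 library, with 36.3% of members and 38.4% of distal regions, and ab4729 with TSA, with 30.4% and 36.4%. Within quartiles of lowest fold the difference was 0.57 points (exact p = 0.824), and without the Diagenode libraries 1.63 points (n = 5, exact p = 0.688, where 5 libraries cannot go below 0.0625). Among regions with a peak, the median log2 fold of members minus that of distal regions was 0.0016 ± 0.116 (SD, n = 9, exact p = 1). The value was 0.22 in the first ab4729 library, -0.14 in the first ab177178 library and 0 in 5, where low pileups take few distinct values.

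Of the 6963 members, 150 had a SEACR peak in all 25 optimisation libraries and 211 (3.03%) in none, against 93 and 436 (8.33%) of the 5231 distal regions. Alphabetically the first marked in all 25 were ADAMTSL4, ANGEL2, ANK1, ANKHD1 and ANP32B. ANK1, the ankyrin of the red cell membrane skeleton, had benchmark folds from 48.7 to 89.4. The first marked in none were AARSD1, ADIPOR2, ADNP, AGO1 and AJM1. ADIPOR2, an adiponectin receptor, was in that group with benchmark folds from 17.5 to 25.6, whereas ADNP, a chromatin-associated homeodomain protein, had 6.54 to 14.4. Promoter regions called in 5 of 6 benchmark libraries were marked in 1.26% to 49.7% of cases over the 25 libraries, and promoter regions with H3K27me3 in 28.0% to 92.8%.

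**Figure D5:**
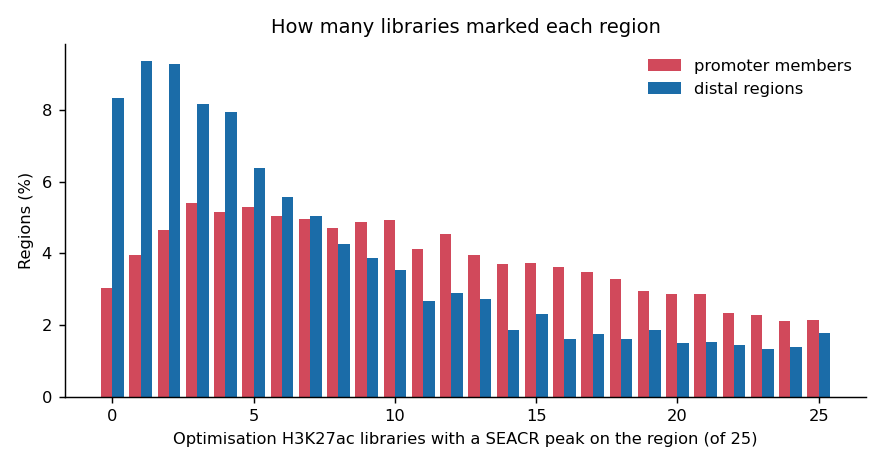
Percent of members and of distal regions (vertical axis) by the number of the 25 optimisation H3K27ac libraries with a SEACR peak on the region (horizontal axis). At 0 libraries stand 3.03% of members and 8.33% of distal regions, and at 25 stand 2.15% and 1.78%.

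No shift of the members in 1 direction was detected with PCR cycles or extraction, in lists that the authors named as downsampled. At 13 against 11 cycles the share of members with a peak changed by -2.76 points ± 17.5 over 8 pairs of antibody and extraction (SD, n = 8, exact sign-flip permutation, two-sided, p = 0.656, adjusted over 2 comparisons 0.891), with 4 pairs up and 4 down. With column against SDS extraction it changed by -0.80 points ± 16.4 (n = 8, exact p = 0.891, adjusted 0.891), again with 4 pairs each way. Single pairs moved by more than these means. With Diagenode, 26.9% of members were marked at 11 cycles and 49.6% at 13 after SDS extraction, but 42.8% and 20.8% after column extraction. For Active Motif the column shares were 46.0% and 21.8%, and for ab4729 56.1% and 36.0%, while ab177178 went from 36.0% to 48.7%. Each value is 1 library, so its own error is unknown beyond the counting of members.

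With TSA, members with a SEACR peak went from 55.3% to 38.4% for ab177178, from 89.0% to 62.0% for ab4729, from 53.0% to 31.8% for Diagenode at 1:100, and from 80.0% to 42.1% for Diagenode at 1:50. All 4 libraries with TSA were lower than the first library of the same antibody and dilution. Distal regions were also lower, going from 54.0% to 24.4%, 67.5% to 62.3%, 34.6% to 18.4% and 59.9% to 25.9% in the same order, and whether members and distal regions differed in this was not tested. The MACS2 shares were also lower for ab177178 (36.3% and 7.78%), ab4729 (95.1% and 30.4%) and Diagenode at 1:50 (84.6% and 26.9%), and close for Diagenode at 1:100 (42.2% and 43.1%). The lists with TSA are named as downsampled and the first lists are not, so drug and depth cannot be told apart.

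H3K27me3 peaks called by SEACR were rare at members and at distal regions alike. In the benchmark pair, whose MACS2 calls on the same reads chose the members, they overlapped 14 members (0.201%) in replicate 1 and 50 (0.718%) in replicate 2, with 0.306% and 0.325% of distal regions, as a description. Of the promoter regions with H3K27me3, a class that rests on the MACS2 calls, SEACR peaks of this pair overlapped 43.9% and 36.9%. In 4 of the 5 optimisation H3K27me3 libraries, which the rule did not use, the share was 0.230% to 1.15% of members and 0.268% to 1.38% of distal regions, and 5.49% to 26.4% of promoter regions with H3K27me3. The library of 11 cycles and column extraction stood apart with 842 members (12.1%), beside 7.30% of distal regions and 28.6% of promoter regions with H3K27me3. The mean over the 5 was 2.98%, and without that library 0.707%. In all, 5984 members had no H3K27me3 SEACR peak in any of the 5, 923 had one in a single library and 56 in 2 or more. The first H3K27me3 library also had MACS2 peaks on 218 members (3.13%), beside 2.41% of distal regions and 40.2% of promoter regions with H3K27me3.

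SEACR calls of H3K27ac in the benchmark libraries, made by the authors on the same reads, overlapped 97.3% and 97.9% of members with ab177178, 92.3% and 86.2% with ab4729, and 91.0% and 95.5% with Diagenode. The SEACR list of Diagenode replicate 2 held no peak on X, so its share is over the 6773 members on chromosomes 1 to 22. Distal regions had 82.9% and 85.0%, 87.9% and 76.4%, and 77.7% and 88.2% in the same order. In each library the share was higher at members than at distal regions.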

How the data were processed

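Peak lists of 38 CUT&Tag libraries of K562 cells were analysed, 18 from MACS2 and 38 from SEACR. Per the labels and the methods of the study, reads were aligned by the authors against hg19 (Bowtie2 2.2.9) after trimming (Trim Galore 0.6.6), freed of duplicates (Picard 2.6.0) and converted with SAMtools 1.3.1 and bedtools 2.25.0. Peaks were then called in each library apart, without pooling of replicates. In the MACS2 lists as deposited, the fold enrichment is the authors' pileup over a genome-wide background, next to the −log10 p, the −log10 q and a score that rounds a multiple of the −log10 q. Each SEACR peak was deposited with a signal, its summed and its maximal fragment coverage. The TSA lists and the PCR and extraction lists are named as downsampled by the authors, the others are not. Read totals are not in the lists, and the fragment totals given with the study were not used, so values were not corrected for depth. The SEACR list of Diagenode replicate 2 of the benchmark held no peak on X.

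Peaks on chromosomes 1 to 22 and X were used, overlap meant at least 1 bp, and coordinates are 1-based GRCh37. Starts were those of protein-coding transcripts of GENCODE lifted to GRCh37. Peaks ran past the end of 1 chromosome, by 102 bases. Sequences were read from GRCh37. The members, the gene lists and the tests were chosen with earlier results of these data known. Tests were two-sided sign-flip permutations over libraries or pairs, exact below 10 values and otherwise with 100000 resamples, with Benjamini-Hochberg adjustment over the comparisons of PCR cycles and of extraction. The overlap and test code was tested on simulated data and against bedtools. Genes named were the qPCR controls of the study, the 5 strongest, 5 widest and 3 narrowest members, those nearest the threshold, the leads and exceptions of each list, the first by alphabet marked in all or none of the optimisation libraries, and the 3 with the largest separation between antibodies. A few items named by these rules were left out of the text. The promoters to print and the motifs to search were picked after the members were known. Alternatives changed the threshold, merging, start window, caller, overlap rule, region width or strength, the start used and the libraries. Python 3.11.15 was used with numpy, pandas, scipy and matplotlib.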

Additional observations from a re-analysis of the deposited data

Results flagged for a closer look

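Of 10 sets of 5 to 9 libraries checked for a value far from the others, 2 held one, where chance flags about 1 in 20. In replicate 1 of ab4729 the median bases under MACS2 peaks per member were 1120 bp, against 1709 to 2015 bp in the other 5 benchmark libraries. This is also the library that alone missed 972 of the promoter regions called in 5. The H3K27me3 library of 11 cycles and column extraction had SEACR peaks on 12.1% of members, against 0.230% to 1.15% in the other 4 optimisation libraries of that mark. What set these libraries apart was not tested.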

How the results depend on the processing

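The number of members was 5484 to 7938 under the 13 alternatives, within 1.5 times the 6963 reported. It was 7006, 6989, 7938, 6992, 7127 and 7028 without ab177178, ab4729 and Diagenode replicates 1 and 2 in turn, and 5484 with SEACR lists in place of MACS2, one of which holds no peak on X. The difference in SEACR recovery between members and distal regions passed the test under all 11 alternatives, at 5.27 to 14.8 points. The MACS2 difference lost the test under 8 of 11: 2.70 points where the centre base had to be covered, 3.79 over the middle 500 bp, 4.26 for regions of 1000 to 3000 bp, 5.23 against distal regions at least 10000 bp from a start, 0.568 within quartiles of lowest fold, 5.80 with starts within 3 kb, 1.63 without Diagenode and 7.80 without the TSA libraries. The last 2 hold 5 libraries, which cannot reach 0.05. The difference in log2 fold, not past the test anywhere, was -0.00085 for regions of 1000 to 3000 bp, -0.0106 with the mean fold and -0.0123 against distal regions at least 10000 bp away. The downstream reach was -284 bp from the innermost start, 198 bp from the canonical start (chosen after seeing the data) and 482 bp without the TSA libraries, which leaves 5. At 13 against 11 cycles the mean was 7.89 points after SDS extraction alone and -13.4 after column extraction alone, and for column against SDS extraction 9.84 at 11 cycles and -11.4 at 13 (both splits chosen after seeing the data, 4 pairs each, exact p = 0.25 in all 4). Column against SDS was 0.637 points where the centre base had to be covered and 1.07 without Diagenode. Where no construction above shows it, the cause was not tested. Pairs were formed within libraries or by antibody. By replicate number, no paired analysis was possible because the tested libraries carry none.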
